A study of Aedes aegypti with 19 samples.

Results

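Ovaries of blood-fed (BF) Aedes aegypti on day 10 after the blood meal were compared with BF ovaries on day 3, around the end of egg maturation. By the study's text a significant number of females had already laid when day 3 ovaries were taken, and most had by day 10. The comparison is therefore not strictly one of ovaries before and after laying. The libraries were taken by their titles: replicates 1, 2 and 4 of BF day 10 and replicates 1, 2, 3 and 4 of BF day 3, together 7 of the 19 libraries of the series (10 BF and 9 sugar-fed, SF). The mosquitoes, of a strain from Poza Rica in Mexico, were 4 to 7 days old when BF females took 1 meal of warmed sheep blood. SF females had no blood, and all females were kept on 10% sucrose. BF females were given a dish for laying, and eggs still present were taken out of the ovaries before collection, so that mature eggs were removed from both days. SF day 10 and SF day 3, with 3 libraries each, and BF day 20, also with 3, are used beside the main comparison. Each library is the total RNA of a pool of ovaries, depleted of ribosomal RNA. In such pools fewer cells of a type and less RNA per cell cannot be told apart.

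Aedes aegypti makes eggs in cycles that each need blood. After a meal the fat body releases yolk proteins that the oocytes take up, the nurse cells load the oocyte with RNA and ribosomes, and the follicle cells around it secrete the eggshell and are left behind when the egg is laid. The next follicles then rest until another meal. The ovary also holds a muscular sheath, tracheae and attached blood cells, and it carries immune and detoxification genes whose products can act on the oocyte or on the tissue around it.

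The 7 libraries held between 40747159 and 50707357 read pairs on exons on day 10, against 30442843 to 43589571 on day 3. Levels are given as TMM-scaled CPM of exon pairs, always in the order of replicates 1, 2 and 4 for day 10 and 1, 2, 3 and 4 for day 3. A gene was called at an edgeR FDR p-value below 0.05 over the 13297 genes tested, and further counts use an absolute log2 fold change above 1. The study calls the replicates biological. The p-values measure the spread between libraries only, estimated over all 19 libraries of the 6 groups and not over these 7 alone. A fit of the 7 libraries alone called 6946 of 12674 genes tested, against 7074 of 13297 in the main fit. In a principal component analysis of the 7 libraries the first component held 64.0% of the variance and separated the days, with scores of 59.0 to 68.8 on day 10 and -59.7 to -33.3 on day 3. Replicate 3 of BF day 3 stood nearest to day 10 on it. Its counts differed from those of the other day 3 libraries with a chi-square statistic over its degrees of freedom of 34.7 to 57.9, against 19.6 to 28.5 among those 3, and it was the lowest day 3 library in 1197 of the 2059 genes that fell past a log2 fold change of 1. Replicate 1 of BF day 3 stood apart for the antimicrobial peptides and transferrin described below.

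Calls were split between rises and falls, but the large changes were nearly all falls. By day 10, 3282 genes (24.7% of those tested) had risen and 3792 (28.5%) had fallen. Past a log2 fold change of 1, 221 genes (1.66%) had risen and 2059 (15.5%) had fallen, and 4794 calls had an absolute log2 fold change of 1 or less. The balance turned with the scaling, since library-size scaling gave 3955 rises and 3318 falls, RLE scaling 3589 and 3561, and DESeq2 3663 and 3538, while falls were the larger number past a log2 fold change of 1 under each (1878, 1971 and 1887 falls). The median log2 fold change of all tested genes was -0.05. CPM did not overlap between the days in 3326 genes that were higher on day 10 and in 3892 that were lower. Protein-coding genes had 3144 rises and 3418 falls among 11876 tested. Long non-coding RNAs (lncRNAs) had 127 rises (9.5%) and 361 falls (27%) among 1337 tested, with a median of -0.47.

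SF ovaries of the same days differed little. By the same model, SF day 10 against SF day 3 gave 2 rises (0.015%) and 17 falls (0.128%), none past a log2 fold change of 1, although 1826 genes had an unadjusted p below 0.05. The median absolute log2 fold change was 0.41 in BF and 0.14 in SF ovaries. The difference between the BF and the SF change, tested as an interaction, was called in 3664 genes (27.6%), with 1668 higher and 1996 lower in BF, a balance that turned under RLE scaling (2085 higher, 1822 lower) and DESeq2 (2300 higher, 1945 lower). Leaving out 1 library at a time left between 6303 and 6919 calls for BF day 10 against day 3.

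**Figure D1:**
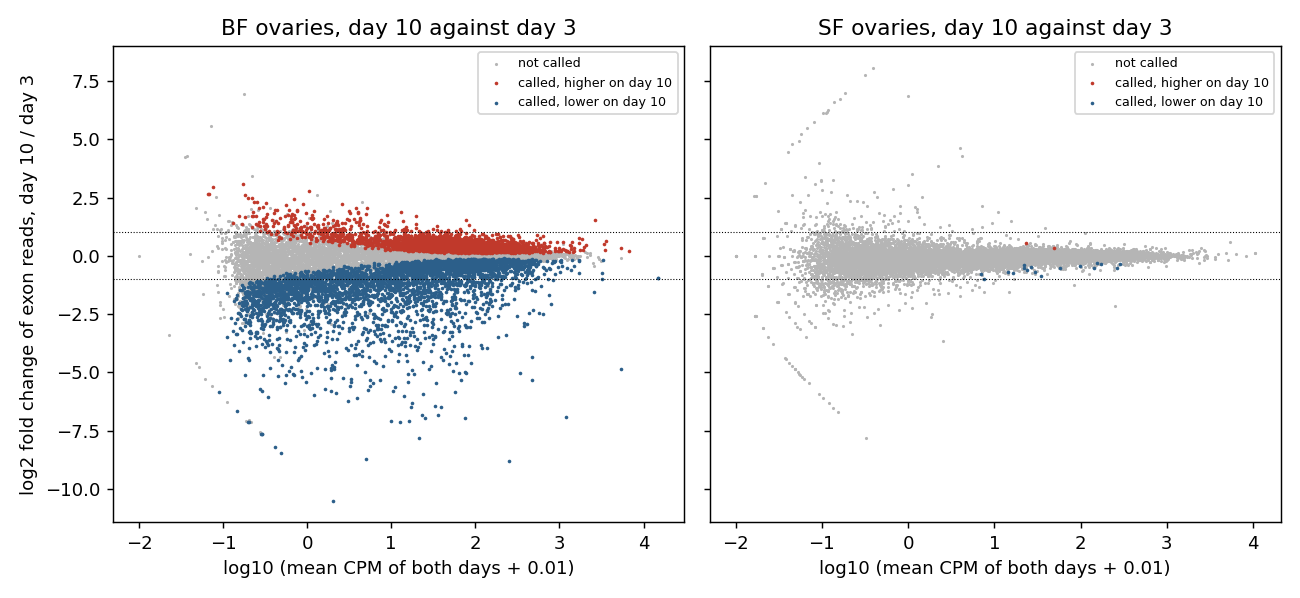
Log2 fold change of exon reads, day 10 over day 3, for every tested gene against the log10 of its mean CPM (plus 0.01), in BF ovaries (left) and SF ovaries (right), with called genes in red (higher on day 10) and blue (lower) and dotted lines at 1 and -1. BF ovaries had 2059 calls below -1 and 221 above 1, and SF ovaries had none past either line.

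The largest falls reached more than 100-fold, and most of the genes concerned have no name in the files. The lncRNA AAEL022783 (AaegL5.0 chromosome 2, 124015067 to 124015686) had 2.35, 0.587 and 0.299 CPM on day 10, against 641, 506, 232 and 604 on day 3. This was a log2 fold change of -8.79 ± 0.63 (SE; edgeR FDR p-value 5.37e-08), and its intron reads fell by 7.82 on the log2 scale. AAEL005192, a protein-coding gene on chromosome 2 (113794685 to 113795266), had 36.8, 7.11 and 15.4 CPM on day 10, against 3775, 1946, 1404 and 2463 on day 3 (-6.91 ± 1.00, FDR p-value 5.00e-05). In both genes every day 10 library lay far below every day 3 library, and day 3 replicate 3 was the lowest of its group. AAEL013218 (chromosome 3) had 3 exon reads in all on day 10, against 1470 on day 3. Corrected for depth, day 3 was 461 times day 10, with a 95% exact counting interval of 157 to 2237 that leaves out the spread between libraries.

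The other genes among the 10 largest falls were AAEL011727, AAEL011260, AAEL007339, AAEL019856 and AAEL024256, together with the antimicrobial peptide genes DEFC and CECD_2, which are described below. AAEL019856 had 1.87, 1.01 and 0.661 CPM on day 10, against 178, 147, 47.7 and 223 on day 3 (log2 fold change -6.96). AAEL007339 had 0.251, 0.563 and 0.384 CPM on day 10, against 64.4, 41.7, 9.52 and 81.7 on day 3 (-6.96). Replicate 3 was again the lowest day 3 library of both, yet lay well above day 10. AAEL011260 had a log2 fold change of -7.10. AAEL011727 had one of -7.81, but overlaps a gene on the opposite strand, and since the strand setting of the counting is not given its reads are uncertain. AAEL024256 had one of -6.50, with 74.7% of its exon reads unique to it.

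Under the same conditions, the 10 largest rises were smaller than the falls and came from genes of low level. The first of them, AAEL024380 on chromosome 2 (430921872 to 430923692), had 1.93, 2.30 and 1.28 CPM on day 10, against 0.256, 0.372, 0.2997 and 0.130 on day 3 (log2 fold change 2.80 ± 0.38, FDR p-value 6.76e-06). AAEL006689 on chromosome 3 had 1.06, 0.845 and 0.832 CPM on day 10, against 0.128, 0.271, 0.231 and 0.182 on day 3 (2.17). All day 10 libraries of both lay above all day 3 libraries. AAEL006430 rose by 2.10 from similarly low levels. The lncRNA AAEL026689 (2.31) lies between the defensin genes DEFC and DEFD on chromosome 3 and had 0.405, 0.516 and 0.299 CPM on day 10, against 0.103, 0, 0 and 0.208 on day 3. AAEL001463 (2.23) rose on exon reads but not on all gene reads (-0.16, FDR p-value 0.529).

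The remaining 5 of the 10 largest rises, AAEL017323, AAEL027303, AAEL026434, AAEL024004 and AAEL001156, overlap genes on the opposite strand and are uncertain for that reason. The most abundant of them, AAEL001156, had 8.74, 8.02 and 8.42 CPM on day 10, against 2.87, 2.33, 1.34 and 1.49 on day 3. AAEL024004 had 3.86, 4.43 and 4.58 CPM on day 10, against 0.692, 1.05, 0.761 and 1.17 on day 3. Neither gene overlapped between the days. Both were as high or higher on BF day 20, with 12.8 ± 4.61 CPM for AAEL001156 and 9.498 ± 2.39 CPM for AAEL024004 (SD, n = 3).

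**Figure D2:**
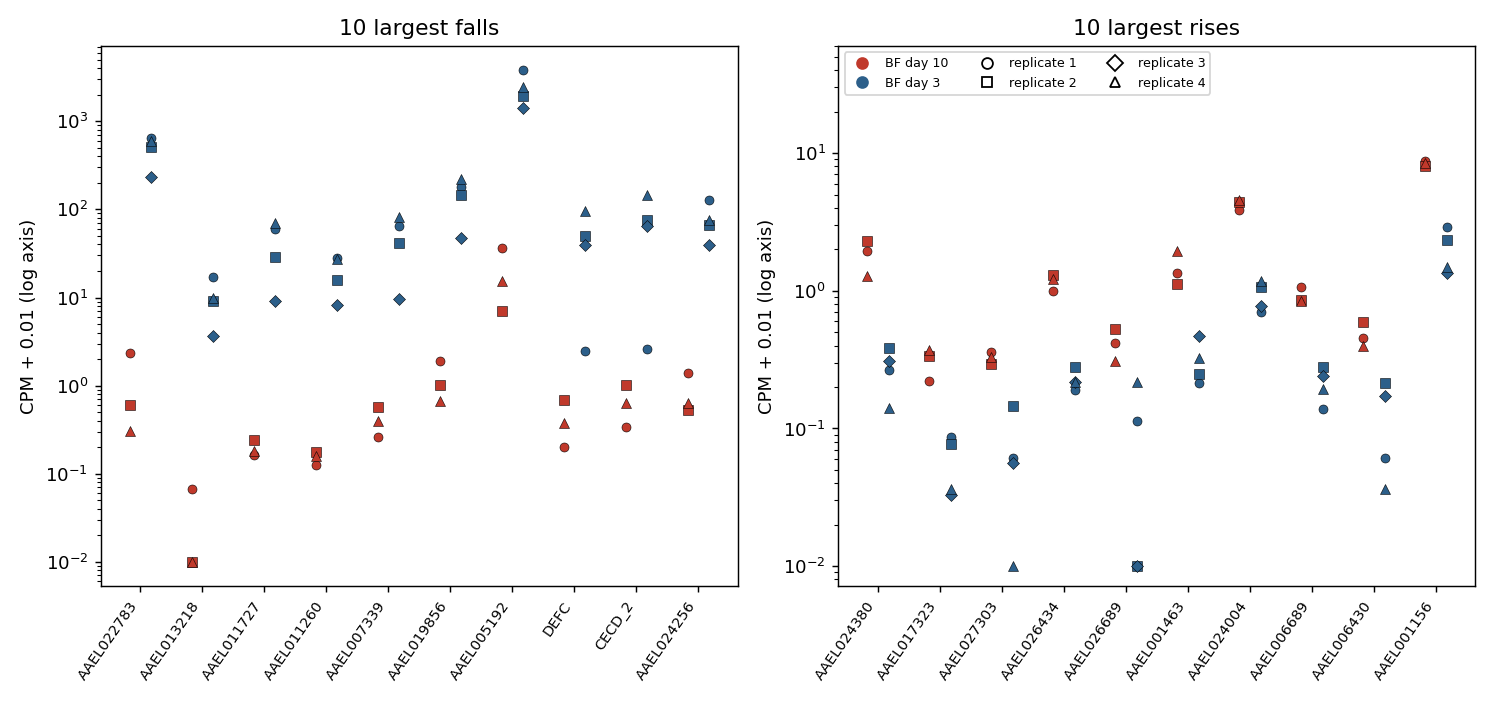
CPM plus 0.01 (log axis) of the 10 genes with the largest falls (left) and the largest rises (right), with BF day 10 libraries in red to the left of BF day 3 libraries in blue and 1 marker shape for each replicate number. Day 3 levels of the falls included 2.49 CPM (DEFC, replicate 1), 3.62 CPM (AAEL013218) and 3775 CPM (AAEL005192). The highest day 10 level among the rises was 8.74 CPM (AAEL001156). All genes shown met the conditions for naming given in the text.

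Among the 1337 tested lncRNAs, transcripts without a long reading frame, 58 rose and 301 fell past a log2 fold change of 1. Of all 13297 tested genes, 221 (1.66%) rose and 2059 (15.5%) fell past it. The lncRNAs named next met the conditions given above, while lncRNAs outside them reached log2 fold changes of -10.5 and 4.29. Beside AAEL022783, the largest falls were those of AAEL023492, with 1 read on day 10 against 73 on day 3 (day 3 was 68.6 times day 10, 95% exact counting interval 11.9 to 2748), and of AAEL026674, which overlaps a gene on the opposite strand and had 0.0386, 0.0469 and 0.0426 CPM on day 10, against 2.95, 1.22, 0.599 and 1.85 on day 3. The largest rises were AAEL027303, AAEL026434 and AAEL026689. AAEL027303 and AAEL026434 overlap an opposite gene too, as do 1621 of the 7074 called genes. As a share of exon reads, lncRNAs made up 0.907% ± 0.0216 (SD, n = 3) on day 10 and 1.14% ± 0.174 (SD, n = 4) on day 3. Day 3 replicate 3 (0.902%) lay within the day 10 range of 0.888% to 0.930%. The exact two-sided permutation p was 0.114, but 3 against 4 libraries allow none below 0.0571, so this test cannot reach 0.05.

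Per length, a pair of neighbouring genes on chromosome 2 ranked among the most abundant on day 3 and was far lower on day 10. AAEL005212 (113806119 to 113807172) averaged 334 RPKM on day 10 and 8292 RPKM on day 3, the highest level of any protein-coding gene on that day. Its neighbour AAEL005192, placed above, averaged 35.2 RPKM on day 10 and 3651 RPKM on day 3. In CPM, AAEL005212 had 561, 276 and 234 on day 10, against 13932, 9688, 7584 and 10144 on day 3 (log2 fold change -4.85 ± 0.62, FDR p-value 1.36e-05). On BF day 20 it had 474 ± 443 CPM (SD, n = 3), so that the day 20 libraries differed widely among themselves.

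The most abundant protein-coding transcripts on day 10 were another set of neighbours on chromosome 2 together with genes of translation. AAEL015682, AAEL026460 and AAEL003673 lie between positions 316690348 and 316712278 and averaged 4267, 2254 and 3330 RPKM on day 10, against 2792, 1308 and 2122 RPKM on day 3. AAEL026460 had 1381, 1387 and 1138 CPM on day 10, against 1026, 883, 877 and 719 on day 3 (log2 fold change 0.57), without overlap. AAEL015682 (0.39) and AAEL003673 (0.44) overlapped between the days, and their calls were lost without day 10 replicate 1 (FDR p-values 0.0830 and 0.116). Only 54.98% of the exon reads of AAEL003673 and 68.9% of those of AAEL026460 were unique, so that reads may be split among the 3 copies.

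One abundant gene stood out by the size of its rise. AAEL007097 on chromosome 2 (129541440 to 129542800) averaged 2793 RPKM on day 10 and 828 RPKM on day 3, with 4093, 3142 and 4629 CPM on day 10 against 1623, 1271, 666 and 1925 on day 3 (log2 fold change 1.53 ± 0.25, FDR p-value 9.18e-05). All day 10 libraries were higher than all day 3 libraries, day 3 replicate 3 was the lowest, and BF day 20 stood at 5881 ± 217 CPM (SD, n = 3). AAEL019403 averaged 2818 RPKM on day 10 and 2119 RPKM on day 3 but rose by only 0.20, a call lost without day 3 replicate 4 (FDR p-value 0.108). AAEL017096, at 2441 RPKM on day 10 and 2261 RPKM on day 3, was not called (-0.10, FDR p-value 0.227), nor were the ribosomal protein genes RpLP2 and RpS23.

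The antimicrobial peptide genes had the lowest median log2 fold change of the gene lists examined. Defensins and cecropins are small secreted peptides that break bacterial membranes, and their genes are induced through the Toll and IMD pathways. Of 17 listed genes, which include the lysozymes, 15 could be tested. In BF ovaries 0 rose (against 24.7% of all genes), 11 fell (73.3%, against 28.5%) and 4 were not called. The median log2 fold change was -5.42. Summed over the list, the level was 32.4 to 34.8 CPM on day 10, against 46.0 to 786 CPM on day 3. The interaction with SF was called for 10 of the 15 (66.7%, against 27.6% of all genes), and 0 were called in SF ovaries.

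The defensin gene DEFC had 0.193, 0.680 and 0.363 CPM on day 10, against 2.49, 49.5, 39.0 and 95.2 on day 3 (log2 fold change -6.84 ± 1.23, FDR p-value 0.000301). DEFD had 0.386, 1.03 and 0.810 CPM on day 10, against 1.67, 64.1, 63.0 and 130 on day 3 (-6.46 ± 1.38). Both lie on chromosome 3, DEFC at 342467671 to 342468290 and DEFD at 342491895 to 342492535. In each the day 3 libraries split, with replicate 1 near the day 10 level and the other 3 far above it.

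The cecropin genes on chromosome 1 behaved in the same way. CECD_2 (84567851 to 84568371) had 0.328, 1.01 and 0.618 CPM on day 10, against 2.56, 76.5, 64.7 and 144 on day 3 (-6.81 ± 1.38). CECN had 1.29, 1.52 and 0.618 CPM on day 10, against 1.08, 14.8, 11.4 and 27.3 on day 3 (-3.57). In CECN, CECA, CECD_1 and CECE replicate 1 of day 3 overlapped the day 10 libraries, and in CECD_1 its 0.103 CPM lay below 2 of the 3 day 10 values (0.309, 0.328 and 0.0640 CPM). Reads of DEFA_1, DEFA_2, CECA and CECE were never unique to 1 gene, so these copies cannot be separated and their calls are uncertain. DEFA_1, for example, had 0.135, 0.657 and 0.512 CPM on day 10, against 1.67, 31.2, 33.5 and 71.8 on day 3.

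These falls depended on the test used. limma-voom called 3 of the 15 genes, and there DEFC, CECD_2 and DEFD had FDR p-values of 0.0670, 0.116 and 0.139. Without day 3 replicate 1 the edgeR fit called 13 of 15, all lower on day 10, and without day 3 replicate 3 it called 11 of 14. Levels on BF day 20 were 1.31 ± 0.342 CPM for DEFC, 2.45 ± 0.895 CPM for DEFD and 7.70 ± 3.57 CPM for CECD_2 (SD, n = 3).

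Lysozymes, which cleave bacterial cell walls, were not a uniform group. LYSC6 had 0.366, 0.305 and 0.192 CPM on day 10, against 11.6, 12.3, 3.53 and 10.1 on day 3 (-5.00, FDR p-value 6.85e-08), and here replicate 1 was as high as the other day 3 libraries while replicate 3 was the lowest. LYSC7B had 16.8, 17.0 and 21.7 CPM on day 10, against 13.4, 16.4, 20.2 and 20.8 on day 3, with overlapping groups and no call (0.06, FDR p-value 0.726). LYSC4, LYSC10 and LYSC11 were not called either. GAM1, a gambicin gene, fell by 2.76 at under 2 CPM in every library. DPT1 and ATT had too few reads to be tested.

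**Figure D3:**
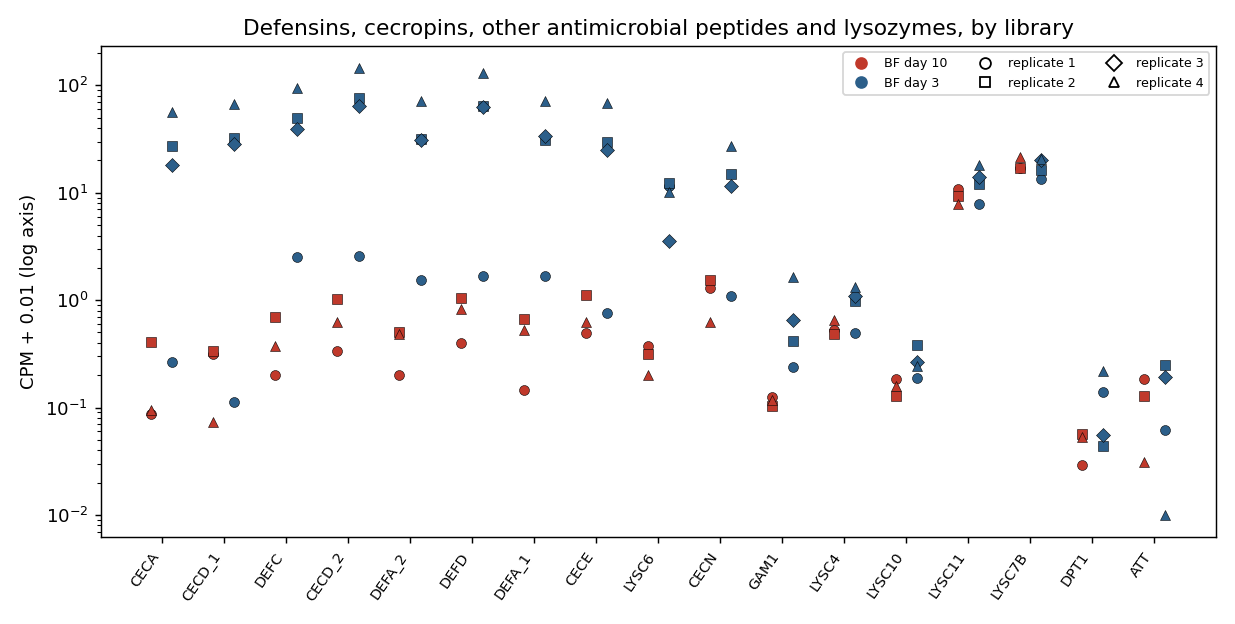
CPM plus 0.01 (log axis) of the 17 antimicrobial peptide and lysozyme genes in the 3 BF day 10 libraries (red, left) and the 4 BF day 3 libraries (blue, right), with 1 marker shape for each replicate number. For the defensins and cecropins, day 3 replicate 1 (circles) lay between 0.103 and 2.56 CPM while the other 3 day 3 libraries lay between 11.4 and 144 CPM.

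Transferrin 1, an iron-binding protein of the hemolymph that also withholds iron from microbes, showed the same split on day 3. Tf1 had 17.3, 18.2 and 14.6 CPM on day 10, against 20.1, 283, 327 and 391 on day 3 (-3.94 ± 0.80, FDR p-value 0.000864). The groups did not overlap, but replicate 1 stood just above day 10, and without it the value was -4.29. Tf2 had 89.2, 93.4 and 92.6 CPM on day 10, against 172, 174, 143 and 185 on day 3, where replicate 1 did not stand apart (-0.88, FDR p-value 1.20e-07). AAEL014762, a ZIP family metal transporter gene by the study's text, had 82.5, 77.7 and 82.4 CPM on day 10, against 168, 161, 143 and 192 on day 3 (-1.04). It overlaps an opposite-strand gene.

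Pattern recognition genes, whose products bind microbial surfaces, mostly fell. Of 46 tested, 5 rose (10.9%, against 24.7% of all genes) and 25 fell (54.3%, against 28.5%), 21 of them past a log2 fold change of 1. The median was -0.90, against -0.05 for all genes. GNBPB6, of the Gram-negative bacteria-binding protein family, had 0.0386, 0.164 and 0.128 CPM on day 10, against 0.308, 2.87, 3.90 and 5.52 on day 3 (-4.83 ± 0.87). Replicate 1 was again the lowest day 3 library, and without it the value was -5.18. The C-type lectin gene CTL24 had 0.0772, 0.235 and 0.192 CPM on day 10, against 1.79, 1.83, 0.622 and 2.97 on day 3 (-3.42), and there replicate 3 was the lowest. CTLGA5 (-4.38) had its high day 3 value in 1 library, with 0.0772, 0.0704 and 0.0640 CPM on day 10, against 0.333, 0.744, 0.530 and 4.48 on day 3. Among other members, LRIM1 fell by 3.16, CTL15 by 3.73, GNBPA1 by 2.29, PGRPLA by 2.02 and PGRPLC by 0.89.

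The 5 rises in this list were CTL12, CTL20, CTLMA13, LRIM18 and PGRPLB. CTL12 had 1.04, 0.680 and 0.746 CPM on day 10, against 0.385, 0.271, 0.231 and 0.130 on day 3 (1.69). PGRPLB, whose Drosophila counterpart breaks down peptidoglycan and so dampens the IMD pathway, had 2.06, 1.71 and 1.71 CPM on day 10, against 0.872, 0.981, 1.20 and 1.20 on day 3 (0.78), and overlaps an opposite gene. Neither overlapped between the days. The call of CTL20 (1.02) was lost without day 10 replicate 1 (FDR p-value 0.1004), without day 3 replicate 2 (0.0753) and without day 3 replicate 1 (0.0631). The interaction was called for 13 of the 46 (28.3%), near the 27.6% of all genes. Without day 3 replicate 1, day 3 replicate 2 or day 10 replicate 1 the list had 3 rises.

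In the Toll, IMD and JAK-STAT pathways most Toll receptor genes fell, while some adaptors and factors rose. Of 36 signalling genes tested, 6 rose (16.7%, against 24.7% of all genes), 13 fell (36.1%, against 28.5%) and 17 were not called, with a median of -0.18. Among Toll receptors, TOLL5A had 37.6, 40.7 and 33.5 CPM on day 10, against 120, 116, 97.4 and 107 on day 3 (-1.56 ± 0.11, FDR p-value 5.11e-09). TOLL11 (-1.76), TOLL7 (-1.64), TOLL8 (-1.39), TOLL10 (-1.30) and TOLL6 (-0.65) fell too, whereas TOLL5B had 11.7, 11.8 and 7.12 CPM on day 10, against 5.05, 5.78, 5.56 and 2.45 on day 3 (1.12). The ligand genes SPZ4 (-1.47) and SPZ3A (-1.22) also fell.

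TUBE, an adaptor between the Toll receptor complex and its kinase, had 73.1, 78.8 and 80.6 CPM on day 10, against 42.1, 42.3, 43.0 and 44.1 on day 3 (0.85 ± 0.05, FDR p-value 1.66e-09). The death-domain adaptor gene FADD of the IMD pathway had 11.2, 11.8 and 9.62 CPM on day 10, against 5.18, 5.75, 4.82 and 4.59 on day 3 (1.10). Both had narrow spreads and no overlap. REL1A, the NF-kappaB factor of the Toll pathway, rose by 0.52 and its inhibitor cact by 0.30, while REL2, the factor of the IMD pathway, fell by 0.92 and MYD by 0.77. Of the JAK-STAT genes, STAT fell by 0.32, and DOME (0.07) and HOP (0.09) were not called, nor was IMD (-0.17). Called for the interaction were 10 of the 36 genes (27.8%), again near the share of all genes.

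CLIP-domain serine proteases pass immune and melanization signals in the hemolymph, serpins inhibit such proteases, and prophenoloxidases (PPOs) make melanin. In this list of 69 genes, 8 rose (11.6%, against 24.7% of all genes), 22 fell and 39 were not called (median -0.15). The falls were 31.9% of the list, near the 28.5% of all genes, and the median was -0.03 without day 3 replicate 3. The serpin gene SRPN6 had 8.51, 7.62 and 5.14 CPM on day 10, against 133, 103, 52.0 and 133 on day 3 (-3.89 ± 0.41, FDR p-value 1.63e-06). CLIPB46 had 0.154, 0.235 and 0.0426 CPM on day 10, against 0.282, 3.99, 3.53 and 8.13 on day 3 (-4.78), and CLIPA1 had 1.12, 0.845 and 1.43 CPM on day 10, against 1.56, 11.8, 4.50 and 29.3 on day 3 (-3.37). In CLIPB46 and CLIPA1, day 3 replicate 1 lay just above the day 10 libraries, and without it the values were -5.13 for CLIPB46 and -3.71 for CLIPA1.

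CLIPB24 went the other way with a tight day 3 group. It had 7.23, 6.55 and 4.69 CPM on day 10, against 1.46, 1.25, 1.57 and 1.56 on day 3 (2.07 ± 0.19, FDR p-value 7.16e-08), and BF day 20 stood at 6.32 ± 0.643 CPM (SD, n = 3). The rises of SRPN14 (1.00) and CLIPC11 (0.67) were less firm: SRPN14 lost its call without day 10 replicate 4 (FDR p-value 0.110), and CLIPC11 lost its call without day 3 replicate 4 (0.130), without day 10 replicate 2 (0.112), without day 3 replicate 2 (0.0879) or without day 10 replicate 4 (0.0840). None of the 6 PPO genes tested, PPO3, PPO4, PPO5, PPO6, PPO8 and PPO10, was called. Of the 69, 14 (20.3%, against 27.6% of all genes) were called for the interaction.

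Genes of the eggshell moved in both directions. 15a-1 codes for a protein of the vitelline membrane, the inner eggshell layer that follicle cells secrete while yolk is taken up. 15a-1 had 0.0964, 0.0469 and 0 CPM on day 10, against 4.15, 1.32, 0.2997 and 0.651 on day 3 (-4.96 ± 0.92, FDR p-value 0.000190), with no overlap and with replicate 1 the highest on day 3. TMOF, named for a peptide hormone that stops trypsin synthesis in the gut and lying in the same stretch of chromosome 2, had 0 reads on day 10 against 55 on day 3. Against a floor of 3 reads over the day 10 group this is at least 17.2-fold lower on day 10, and on day 3 it ran at 0.744, 0.541, 0.0231 and 0.235 CPM.

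The peroxidase genes pxt, which codes for a chorion peroxidase that hardens the eggshell, and HPX8B lie beside each other on chromosome 1 and were among the abundant transcripts on both days. pxt had 2459.5, 2192 and 2309 CPM on day 10, against 1408, 1373, 1431 and 1428 on day 3 (0.72 ± 0.09, FDR p-value 2.31e-06). HPX8B had 2591, 2127 and 2461 CPM on day 10, against 1831, 1730, 1515 and 1874 on day 3 (0.46, FDR p-value 0.00571). Neither gene overlapped between the days. Vcp, a vitellogenic carboxypeptidase gene, had 4.86, 4.48 and 2.47 CPM on day 10, against 2.59, 4.73, 1.84 and 2.58 on day 3, and was not called (0.43, FDR p-value 0.438).

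The 3 genes of the germline list, osk, inx4 and mael, changed little. Small RNA genes, which also act in the germline and are given next, included larger falls. The oskar gene, osk, whose product assembles germ plasm in Drosophila, had 3724, 3587 and 4011 CPM on day 10, against 3038, 3045, 3453 and 3205 on day 3 (0.24, FDR p-value 0.00683). inx4, the innexin that joins germ cells to their neighbours in Drosophila, had 343, 341 and 332 CPM on day 10, against 301, 294, 324 and 305 on day 3 (0.15, FDR p-value 0.0375), a call lost without day 3 replicate 2 (0.103) or day 3 replicate 4 (0.0752). mael, of the piRNA pathway, had 402, 412 and 375 CPM on day 10, against 465, 467, 504 and 449 on day 3 (-0.25). On all gene reads the change of mael was not called (-0.08, FDR p-value 0.317). Together these 3 genes gave 4340 to 4718 CPM on day 10, against 3804 to 4280 CPM on day 3.

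PIWI proteins hold piRNAs that silence transposons in the germline, and in Aedes the family has expanded and also acts on viral RNA. Of 10 small RNA genes tested, 1 rose (10%, against 24.7% of all genes), 6 fell (60%, against 28.5%) and 3 were not called (median -0.23). On all gene reads 3 rose and 3 fell (median -0.12), library-size scaling gave 2 rises and 4 falls, and there were 1 rise and 4 falls without day 3 replicate 1, day 3 replicate 3 or any 1 of the day 10 libraries. PIWI5 had 50.6, 49.2 and 43.1 CPM on day 10, against 130, 137, 113 and 114 on day 3 (-1.37 ± 0.13, FDR p-value 1.65e-07). PIWI3 had 265, 296 and 248 CPM on day 10, against 503, 546, 611 and 457 on day 3 (-0.97). PIWI5 overlaps PIWI6 on the same strand of chromosome 3. In PIWI5 and PIWI3 the days did not overlap, and day 20 was lower still, at 34.2 ± 7.87 CPM for PIWI5 and 161 ± 43.2 CPM for PIWI3 (SD, n = 3).

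PIWI2, next to PIWI3 on chromosome 1, fell by 0.58, and its call was lost without any 1 of 6 libraries, with FDR p-values between 0.0610 and 0.152. By contrast PIWI4, at 552, 542 and 632 CPM on day 10 against 542, 523, 550 and 491 on day 3, and PIWI6, at 268, 253 and 276 CPM on day 10 against 264, 269, 265 and 243 on day 3, were not called (0.13 and 0.03). PIWI7 rose (1.56) at under 1 CPM, with 66.1% of its reads unique and an opposite-strand overlap, and by 2.01 without day 3 replicate 3. AGO2, the slicer of the antiviral siRNA pathway, had 63.8, 65.0 and 70.9 CPM on day 10, against 137, 129, 106 and 133 on day 3 (-0.92 ± 0.10, FDR p-value 2.93e-07), and also overlaps an opposite gene. loqs, a partner of Dicer, fell by 0.29. AGO1b (-0.16) was called by a margin that was lost in 5 of the leave-one-out fits, and Ars2 (-0.06) was not called.

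Ovarian follicle cells make ecdysteroids after a blood meal. Of the 4 P450 genes of this pathway tested, 1 rose (25%, against 24.7% of all genes) and 2 fell (50%, against 28.5%). CYP307A1, of the early steps of synthesis, had 8.24, 11.8 and 12.5 CPM on day 10, against 3.59, 6.15, 5.12 and 5.03 on day 3 (1.13 ± 0.26, FDR p-value 0.00161). CYP315A1, of a late step, had 4.53, 4.25 and 3.94 CPM on day 10, against 7.72, 8.83, 7.77 and 7.24 on day 3 (-0.89). CYP18A1, which inactivates 20-hydroxyecdysone in Drosophila, had 6.58, 6.80 and 7.02 CPM on day 10, against 18.9, 20.3, 17.9 and 17.4 on day 3 (-1.45 ± 0.27, FDR p-value 0.000191). None of these 3 overlapped between the days. CYP314A1, of the last step to 20-hydroxyecdysone, had 3.26, 2.51 and 3.18 CPM on day 10, against 2.46, 2.91, 3.02 and 2.32 on day 3, and was not called (0.16).

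Among genes that respond to ecdysone and juvenile hormone, 4 of 12 tested rose (33.3%, against 24.7% of all genes) and 2 fell (16.7%, against 28.5%). The other 6 were not called, and only 2 rose without day 3 replicate 4. HR4, an ecdysone-responsive nuclear receptor gene, had 27.3, 29.7 and 19.4 CPM on day 10, against 63.9, 66.6, 63.4 and 57.1 on day 3 (-1.30 ± 0.11, FDR p-value 4.07e-08), and it is 1 of the 17 falls called in SF ovaries as well (-0.70, FDR p-value 0.0272), where leaving out 1 SF library gave 1 to 5 calls in place of 19. It overlaps an opposite gene. E75, an early ecdysone response gene, had 167, 163 and 153 CPM on day 10, against 248, 247, 223 and 204 on day 3 (-0.52). Hnf4, a nuclear receptor of lipid metabolism, had 117, 126 and 125 CPM on day 10, against 91.3, 96.0, 91.1 and 94.7 on day 3 (0.39, FDR p-value 4.71e-05). HR96 rose by 0.24, EcR, the ecdysone receptor gene, by 0.18 and E78 by 0.25, the call of E78 being lost in 4 leave-one-out fits. USP, the partner of EcR, was not called (0.02), nor was the insulin receptor gene InR (-0.10).

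Gap junction genes fell together, apart from the germline innexin inx4. Innexins form the channels through which follicle cells and oocyte exchange ions and small molecules. inx2 had 47.1, 47.1 and 45.5 CPM on day 10, against 157, 176, 122 and 174 on day 3 (-1.76 ± 0.12, FDR p-value 4.80e-09). inx1, its neighbour on chromosome 3, had 6.48, 5.79 and 5.46 CPM on day 10, against 22.1, 22.05, 17.5 and 25.8 on day 3 (-1.89 ± 0.16, FDR p-value 2.56e-08). inx3 on chromosome 1 had 18.7, 23.5 and 14.9 CPM on day 10, against 57.3, 57.5, 38.5 and 67.5 on day 3 (-1.53), with an opposite-strand overlap. Replicate 3 was the lowest day 3 library in each and still lay above all of day 10.

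inx7, in the same stretch of chromosome 3 at under 1 CPM, fell by 2.05, and shakB, a further innexin gene beside inx1 that was listed as a neuron marker, had 3.99, 4.11 and 3.22 CPM on day 10, against 8.18, 8.79, 6.43 and 9.20 on day 3 (-1.11). Without day 3 replicate 3 the innexin list still had 1 rise and 4 falls of 5. The interaction was called for 3 of the 5 (60%, against 27.6% of all genes). On BF day 20 inx2 stood at 41.0 ± 6.43 CPM and inx1 at 4.75 ± 0.760 CPM (SD, n = 3).

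Transcripts of the mitochondrial genome were lower on day 10, while nuclear genes for the mitochondrial ribosome were higher. Of 12 mitochondrial genes tested 0 rose, 8 fell (66.7%, against 28.5% of all genes) and 4 were not called, with a median of -1.75. In SF ovaries the median was -0.53 with 0 calls. The interaction was called for 4 of the 12 (33.3%, against 27.6% of all genes). COX1, the first subunit of cytochrome oxidase, had 1352, 1484 and 1075 CPM on day 10, against 3644, 4419.5, 2978 and 4074 on day 3 (-1.54 ± 0.22, FDR p-value 2.20e-05). ND1, a subunit of complex I, had 77.3, 56.9 and 60.7 CPM on day 10, against 253, 249, 147 and 296 on day 3 (-1.86). ND5 (-2.04), ND4 (-1.85), COX2 (-1.64), ATP6 (-1.61), COX3 (-1.49) and CYTB (-1.17) fell as well. Summed, the mitochondrial genes had 1651 to 2292 CPM on day 10, against 4375 to 7007 CPM on day 3, without overlap.

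Mitochondrial ribosome genes showed a small, broad rise. Of 58 tested, 31 rose (53.4%, against 24.7% of all genes), 3 fell (5.2%, against 28.5%) and 24 were not called, with a median of 0.25. mRpL39 had 59.2, 59.99 and 61.7 CPM on day 10, against 39.1, 38.6, 38.5 and 42.5 on day 3 (0.60 ± 0.06, FDR p-value 1.07e-07). mRpS34 had 29.9, 25.1 and 27.4 CPM on day 10, against 17.8, 17.1, 16.2 and 18.2 on day 3 (0.67), and mRpL46 (0.65), with an opposite-strand overlap, had a like change. The exceptions were mRpL27, at 7.37, 6.22 and 6.93 CPM on day 10 against 12.2, 11.7, 9.48 and 13.2 on day 3 (-0.76), mRpS28_1 (-0.52) and mRpS28_2 (-0.23). Scaled by library size alone 40 of the 58 rose, and without day 3 replicate 3 it was 32. The interaction was called for 13 of the 58 (22.4%, against 27.6% of all genes).

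All 6 core proteasome genes tested fell, against 28.5% of all genes, by small and even amounts. The proteasome degrades tagged proteins, and these genes code for subunits of its barrel. Prosalpha1 had 53.1, 55.7 and 53.3 CPM on day 10, against 77.0, 74.2, 77.9 and 77.6 on day 3 (-0.51 ± 0.05, FDR p-value 3.28e-07). Prosalpha4 had 49.7, 46.0 and 48.2 CPM on day 10, against 72.0, 69.2, 65.3 and 72.5 on day 3 (-0.54). Prosbeta1 (-0.60), Prosalpha2 (-0.42), Prosalpha7 (-0.30) and Prosalpha3 (-0.27) followed, with a list median of -0.46 and no overlap between the days in any of them. On all gene reads Prosalpha3 was not called (-0.10, FDR p-value 0.184). The interaction was called for all 6 (against 27.6% of all genes), and Prosbeta1 and Prosalpha1 overlap genes on the opposite strand.

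Cytosolic ribosomal protein genes were near the median of all genes. Of 71 tested, 6 rose (8.5%, against 24.7% of all genes), 7 fell (9.9%, against 28.5%) and 58 were not called (median 0.00). Counted on all gene reads, introns included, 31 rose and 4 fell. Without 1 library there were 3 to 8 rises and 4 to 6 falls. RpLP0 had 1145, 1048 and 1042 CPM on day 10, against 1598, 1555, 1950 and 1535 on day 3 (-0.62 ± 0.08, FDR p-value 4.92e-06), and -0.50 without day 3 replicate 3, its highest library. RpL30 moved the other way, with 720, 576 and 662 CPM on day 10 against 483, 461, 486 and 507 on day 3 (0.43). RpS2 is annotated as a pair of genes: RpS2_1 had 1077, 896 and 1011 CPM on day 10, against 1444, 1380, 1617 and 1326 on day 3 (-0.54), whereas RpS2_2 had 64.5, 63.0 and 57.9 CPM on day 10, against 44.6, 45.2, 47.6 and 44.2 on day 3 (0.44). The 4 groups of values of this pair did not overlap between the days.

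The Mediator complex links transcription factors to RNA polymerase. Of its 20 genes tested, 7 rose (35%, against 24.7% of all genes) and 3 fell (15%, against 28.5%). Med31 had 48.0, 45.4 and 47.6 CPM on day 10, against 30.0, 31.0, 30.3 and 30.8 on day 3 (0.62 ± 0.05, FDR p-value 2.19e-08), and Med20 (0.65) and Med18 (0.58) rose by like amounts. Med17 had 21.8, 24.3 and 27.0 CPM on day 10, against 37.2, 37.5, 33.8 and 39.5 on day 3 (-0.60), and Med24 (-0.60) and Med23 (-0.33) fell. Of 11 genes of translation and secretion 5 rose (45.5%) and 1 fell (9.1%). Aats-ala-m, a mitochondrial tRNA synthetase gene by its symbol, rose by 0.49, and srp54, of the signal recognition particle, had 79.7, 80.2 and 78.5 CPM on day 10, against 102, 104, 101 and 104 on day 3 (-0.37).

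Cytochrome P450 genes oxidise steroids, fatty acids and foreign compounds. Of 88 tested, 11 rose (12.5%, against 24.7% of all genes), 35 fell (39.8%, against 28.5%) and 42 were not called (median -0.63). The interaction was called for 28 (31.8%, against 27.6% of all genes). The pair CYP325N2 and CYP325G3 lies in 1 stretch of chromosome 3 and moved apart. CYP325N2 had 0.0772, 0 and 0.0213 CPM on day 10, against 1.56, 1.42, 0.645 and 1.02 on day 3 (-4.95 ± 0.65, FDR p-value 4.36e-06). CYP325G3 had 0.502, 0.305 and 0.448 CPM on day 10, against 0.0769, 0.101, 0.0922 and 0.130 on day 3 (2.04 ± 0.37, FDR p-value 0.000137). CYP325N1, from the same stretch, was not called (0.37, FDR p-value 0.371), at 6.62, 5.98 and 6.87 CPM on day 10 against 2.79, 2.84, 4.75 and 9.69 on day 3.

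CYP6M9 and CYP6M5 on chromosome 2 overlap each other and a gene on the opposite strand, so their reads are uncertain. CYP6M9 had 3.84, 2.96 and 2.49 CPM on day 10, against 26.0, 28.2, 17.8 and 28.1 on day 3 (-3.01), and CYP6M5 (-3.13) fell by a like amount at a lower level. CYP325G2 fell by 4.46, CYP9J22 by 2.84 and CYP9M9 by 2.68. CYP6N17 rose by 0.82 at about 1 CPM.

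Glutathione transferases conjugate toxic compounds to glutathione. In 20 genes tested, 2 rose (10%, against 24.7% of all genes) and 8 fell (40%, against 28.5%), with a median of -0.21. Without day 3 replicate 1, 6 rose and 8 fell, and library-size scaling and all gene reads each gave 4 rises. GSTS1 had 16.5, 15.2 and 13.1 CPM on day 10, against 55.7, 54.5, 39.0 and 54.3 on day 3 (-1.77 ± 0.13, FDR p-value 4.81e-09). GSTT4 had 5.67, 4.90 and 4.54 CPM on day 10, against 15.5, 20.8, 14.1 and 20.1 on day 3 (-1.80), and GSTE6 (-1.17) fell too. GSTD6 and GSTD7 rose: GSTD6 had 55.4, 53.9 and 58.0 CPM on day 10, against 41.2, 36.8, 41.8 and 40.5 on day 3 (0.48), and GSTD7 rose by 0.78. The carboxylesterase list had no call among 7 genes, with 10.6 to 12.99 CPM in sum on day 10 and 9.80 to 18.0 CPM on day 3.

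Peroxidases and other antioxidant genes remove reactive oxygen. Of 18 tested, 7 rose (38.9%, against 24.7% of all genes) and 4 fell (22.2%, against 28.5%). The heme peroxidase gene HPX2 had 31.8, 34.4 and 25.4 CPM on day 10, against 251, 199, 146 and 177 on day 3 (-2.66 ± 0.20, FDR p-value 3.61e-08). The glutathione peroxidase genes differed, since GPXH3 had 3.22, 2.18 and 3.71 CPM on day 10, against 1.15, 0.879, 1.38 and 0.730 on day 3 (1.54), while GPXH2 had 13.5, 10.8 and 11.2 CPM on day 10, against 23.8, 30.1, 29.6 and 25.8 on day 3 (-1.20). HPX1, which overlaps an opposite gene, fell by 1.90.

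Odorant-binding proteins (OBPs) carry small hydrophobic molecules in olfactory sensilla and in other tissues. In this list 19 of 42 genes had enough reads to be tested, 0 rose, 11 fell (57.9%, against 28.5% of all genes) and 8 were not called (median -1.38). The interaction with SF was called for only 2 of the 19 (10.5%, against 27.6% of all genes). OBP46 had 0.0772, 0.188 and 0 CPM on day 10, against 2.08, 2.60, 1.06 and 4.25 on day 3 (-4.81 ± 0.69, FDR p-value 1.16e-05). OBP10 had 0.251, 0.117 and 0.277 CPM on day 10, against 1.49, 1.79, 1.64 and 2.55 on day 3 (-3.09). OBP22 fell by 1.62, and OBP23 by 4.79 with overlap between the days. The whole list summed to 6.93 to 8.93 CPM on day 10, against 15.3 to 25.5 CPM on day 3. OBP15 had 3.43, 3.24 and 3.05 CPM on day 10, against 4.67, 5.58, 5.03 and 4.40 on day 3 (-0.60), a call lost in 5 leave-one-out fits. Without 1 library between 7 (of 20, without day 10 replicate 4) and 10 fell, and the median was -0.89 without day 3 replicate 4. OBP56 had 0.0386, 0.0469 and 0.0213 CPM on day 10, against 0, 0, 0 and 0.0261 on day 3, and was not tested.

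Chemoreceptor and pickpocket channel genes had about equal numbers of rises (7, 15.2%) and falls (8, 17.4%) among 46 tested of 135, at low levels. Among all genes 24.7% rose and 28.5% fell. There were 5 falls without day 10 replicate 1, and the interaction was called for 5 of the 46 (10.9%, against 27.6% of all genes). The odorant receptor genes Or30 and Or55, in 1 stretch of chromosome 1, both rose. Or30 had 2.43, 2.44 and 2.84 CPM on day 10, against 1.21, 0.710, 1.24 and 1.28 on day 3 (1.20 ± 0.24, FDR p-value 0.000407), and Or55 (0.78) had 2.33, 3.03 and 3.26 CPM on day 10, against 1.44, 1.52, 1.78 and 1.95 on day 3. ppk202, a pickpocket channel gene, had 6.89, 6.59 and 2.79 CPM on day 10, against 1.87, 1.89, 1.59 and 1.95 on day 3 (1.57). Each of these kept the days apart.

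The falls named here were of genes under 1 CPM. Or121 had 0.135, 0.0469 and 0.107 CPM on day 10, against 0.718, 0.575, 0.761 and 0.599 on day 3 (-2.73), and Gr77, Or117 and Or6 fell by 3.58, 2.49 and 2.00, the call of Or117 being lost without day 10 replicate 1 (FDR p-value 0.0537) or day 10 replicate 4 (0.0564). Orco, the co-receptor of odorant receptors, fell by 1.16. ppk301, which controls the choice of fresh water for laying, was not called (0.66, FDR p-value 0.332), at 0.791, 0.516 and 1.26 CPM on day 10 against 0.359, 0.642, 0.415 and 0.756 on day 3. Or113 and Or122 had too few reads to be tested. Counted on all gene reads the list had a median of -0.15, against 0.16 on exon reads.

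Genes of cell death and autophagy, which take part when spent follicles are cleared, included a few large falls. Of 26 tested, 8 rose (30.8%, against 24.7% of all genes) and 6 fell (23.1%, against 28.5%), with a median of 0.08. ARK, the apoptosome core that activates caspases, had 54.6, 58.0 and 58.5 CPM on day 10, against 237, 272, 141 and 296 on day 3 (-2.05 ± 0.21, FDR p-value 7.05e-07). The caspase gene CASPS8 had 1.79, 2.06 and 1.98 CPM on day 10, against 9.33, 12.004, 12.4 and 17.3 on day 3 (-2.71). APG18A (-0.95) and APG8 (-0.93) of autophagy fell too. IAP2 (0.41) and DEBCL (0.41) rose, and Dronc, the caspase that ARK activates in Drosophila, was not called (-0.04).

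G protein-coupled receptor genes had 6 rises (9.4%, against 24.7% of all genes) and 22 falls (34.4%, against 28.5%) among 64 tested (median -0.30). The interaction was called for 10 of the 64 (15.6%, against 27.6% of all genes). GPRHE6 had 6.23, 5.30 and 5.05 CPM on day 10, against 73.4, 64.7, 29.6 and 73.9 on day 3 (-3.45 ± 0.26, FDR p-value 1.98e-08), with an opposite-strand overlap. The dopamine receptor-like gene GPRDOP4 had 1.41, 1.34 and 1.60 CPM on day 10, against 9.51, 8.89, 6.27 and 8.73 on day 3 (-2.52), and GPRMTH7 had 4.53, 3.80 and 5.03 CPM on day 10, against 23.7, 24.6, 17.0 and 27.3 on day 3 (-2.38). GPRNNA1 rose by 0.81 on exon reads only, since on all gene reads the value was -0.065 (FDR p-value 0.687). On all gene reads 4 of these genes rose and 43 fell.

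Scavenger receptors take up lipids and microbes. Of 15 tested, 3 rose (20%, against 24.7% of all genes) and 3 fell (20%, against 28.5%). SCRB9 had 16.6, 17.9 and 12.1 CPM on day 10, against 122, 115, 55.4 and 131 on day 3 (-2.77 ± 0.28, FDR p-value 6.70e-07). SCRB5 (-1.46) and SCRBQ2 (-0.45) fell as well. SCRC1 and SCRC2, side by side on chromosome 3, rose by 0.90 and 1.69, and SCRASP1, which overlaps an opposite gene, by 0.61. Replicate 3 was the lowest day 3 library of ARK, GPRHE6 and SCRB9, and none of the 3 overlapped between the days.

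The heat shock genes HSP70Ba and HSP70Bb, which code for stress-induced chaperones, were called as falls, with 1 library far above the others. HSP70Bb had 0.135, 0.117 and 0.128 CPM on day 10, against 0.385, 0.473, 5.67 and 0.235 on day 3 (-3.72), and HSP70Ba had 0.502, 0.375 and 0.533 CPM on day 10, against 1.10, 1.59, 7.17 and 1.64 on day 3 (-2.61). The high value of both was in day 3 replicate 3, without which the log2 fold change was -1.45 for HSP70Bb (FDR p-value 0.286) and -1.58 for HSP70Ba (0.0829). The call of HSP70Bb was also lost without any 1 of the day 10 libraries (0.0863 to 0.0897), and that of HSP70Ba without day 10 replicate 2 (0.0582). In an edgeR fit of the 7 libraries alone HSP70Bb was not called either (FDR p-value 0.0614).

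Small nuclear RNAs, the RNA parts of the spliceosome, had 9 rises and 5 falls among 47 tested of 65 (median 0.20). These were 19.1% and 10.6%, against 24.7% and 28.5% of all genes. The counts were unsteady, with 5 rises and 3 falls without day 10 replicate 1, 6 and 2 without day 10 replicate 4, 6 and 3 without day 3 replicate 3 or day 3 replicate 4, 8 and 3 without day 10 replicate 2, and 16 and 1 on all gene reads. AAEL019336 had 149, 121 and 122 CPM on day 10, against 73.1, 60.8, 54.96 and 50.6 on day 3 (1.13 ± 0.21, FDR p-value 0.000363), and U1_4 rose by 1.33. U12 (-0.68) and U4atac (-0.75), both of the minor spliceosome, fell, while U11 of the same spliceosome rose (0.92). U4atac overlaps a gene on the opposite strand and U11 a gene on its own strand. The snRNA share of exon reads was 0.285% ± 0.0339 on day 10 (SD, n = 3) and 0.318% ± 0.0375 on day 3 (SD, n = 4), with overlap. The exact two-sided permutation p was 0.343, in a test that cannot fall below 0.0571 with these numbers of libraries. Of 23 rRNA genes tested 5 fell (21.7%, against 28.5% of all genes), but ribosomal RNA had been depleted from all libraries. microRNA precursors and tRNAs had too few reads to be tested.

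AAEL000379, named in the study as a cysteine-rich venom protein gene, had 12.1, 8.33 and 8.21 CPM on day 10, against 5.74, 4.599, 6.06 and 4.43 on day 3 (0.87, FDR p-value 0.00877). Only 0.0463% of its exon reads were unique to it, and its call was lost without day 10 replicate 1 (0.0539).

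**Figure D4:**
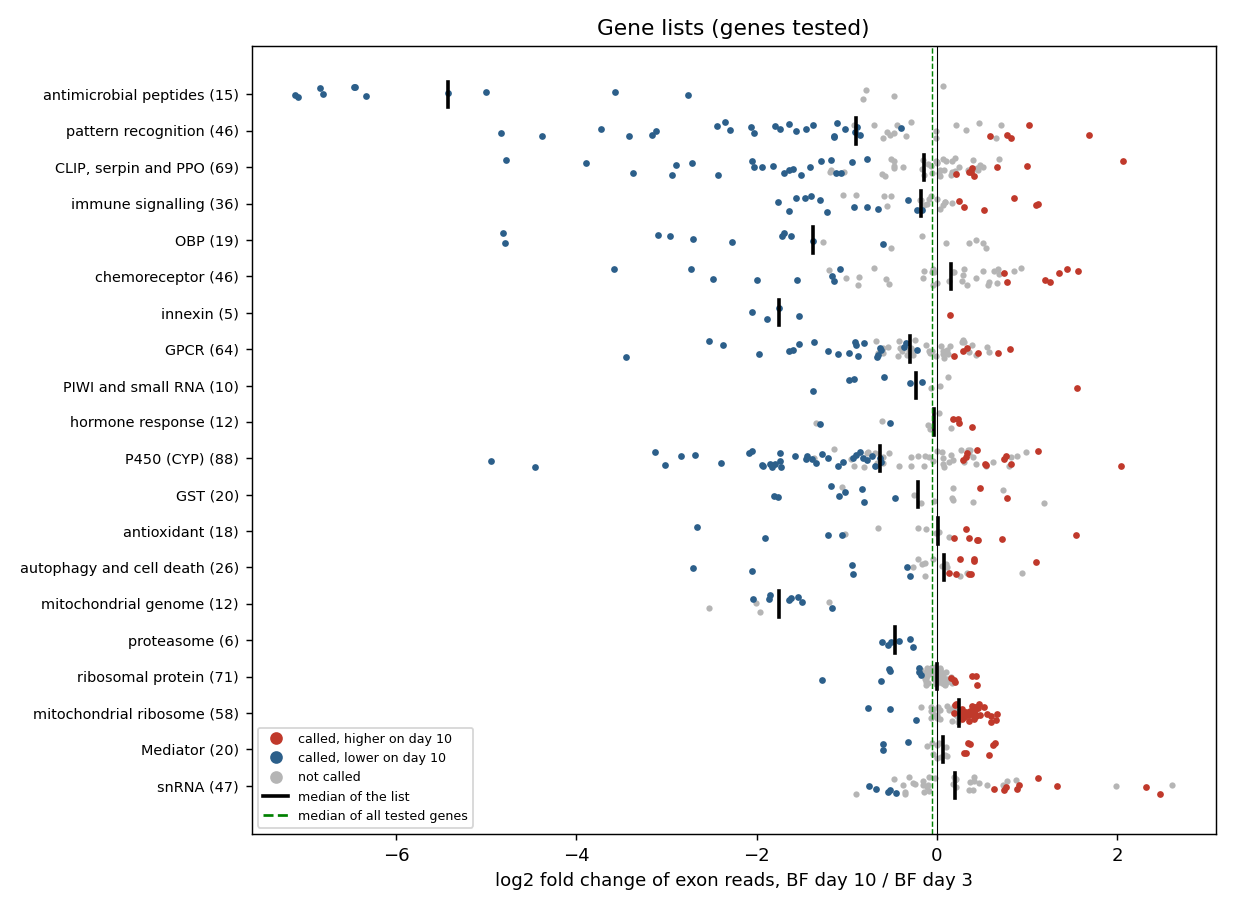
Log2 fold change of exon reads, BF day 10 over BF day 3, for the tested genes of 20 lists (number tested in brackets), with called rises in red, called falls in blue and other genes in grey. Black bars mark the median of each list, from -5.42 for antimicrobial peptides to 0.25 for the mitochondrial ribosome, and the dashed line marks the median of all genes, -0.05.

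Markers of other cells that a dissected ovary can hold were measured as well. The 6 hemocyte markers tested were the PPO genes given above, so their 0 calls are the same result. The list summed to 5.89 to 6.67 CPM on day 10, against 4.64 to 5.74 CPM on day 3. Neuron markers had 1 rise (npf, 0.80) and 1 fall (shakB) of 5, with sums of 8.51 to 9.69 CPM on day 10 and 10.8 to 14.2 CPM on day 3. Eye opsins had 1 rise (GPROP8) and 1 fall (GPROP10) of 5, with 6.70 to 8.99 CPM on day 10 and 5.83 to 10.9 CPM on day 3. Salivary gland markers had 0 calls of 3, at 1.51 to 2.09 CPM on day 10 and 1.31 to 1.95 CPM on day 3. Midgut markers had 1 rise of 3, at 75.3 to 92.7 CPM on day 10 and 63.5 to 67.4 CPM on day 3, nearly all of it from ALP1 (0.36), an alkaline phosphatase gene. No marker of muscle, fat body or spermatozoa was matched by symbol, and their part in the results was not tested.

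Intron reads in total RNA can come from transcripts that are not fully spliced, but their source was not tested here. They made up a smaller part of the day 10 libraries. The intron share of gene reads was 5.48% ± 0.485 on day 10 (SD, n = 3) and 11.9% ± 1.92 on day 3 (SD, n = 4), with no overlap, day 3 replicate 3 being the lowest of its group at 9.11%. The exact two-sided permutation p was 0.0571, the smallest that 3 against 4 libraries allow (0.0816 after Benjamini-Hochberg adjustment over 10 shares). In SF ovaries the share was 4.59% ± 0.522 on day 10 and 4.84% ± 0.751 on day 3 (SD, n = 3 each). Reads outside genes made up 5.54% ± 0.242 of mapped pairs on day 10 and 7.90% ± 0.647 on day 3, and mitochondrial genes 0.463% ± 0.0906 of exon reads on day 10 and 0.979% ± 0.207 on day 3, both without overlap and with the same permutation p. The mitochondrial share was lower on day 10 in SF ovaries too, at 0.351% ± 0.0635 against 0.493% ± 0.0724 on day 3. Intergenic shares there were 4.93% ± 0.155 on day 10 and 5.13% ± 0.405 on day 3.

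Most genes had a lower intron share on day 10. Among 8821 genes with more than 1 exon and at least 100 gene reads in each of the 7 libraries, the median intron share was 3.21% on day 10 and 7.02% on day 3, and it was lower on day 10 in 8212 of them (93.1%). The share of exon reads in the 20 most abundant genes was 8.54% ± 0.511 on day 10 (SD, n = 3) and 10.8% ± 0.542 on day 3 (SD, n = 4), again without overlap (p = 0.0571 by the exact permutation test).

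Calls on intron reads depended on the scale. Scaled on intron reads alone, 1644 of 9498 genes rose (17.3%) and 1396 fell (14.7%), by the edgeR test. Scaled on exon reads, 77 rose and 8088 fell, with a median log2 fold change of -1.28. On the first scale 9155 genes were tested on both kinds of reads of the same libraries, and 1973 were called on both, of which 767 rose on both, 898 fell on both, 113 rose on exons and fell on introns, and 195 fell on exons and rose on introns. A further 3335 were called on exon reads only and 1015 on intron reads only.

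**Figure D5:**
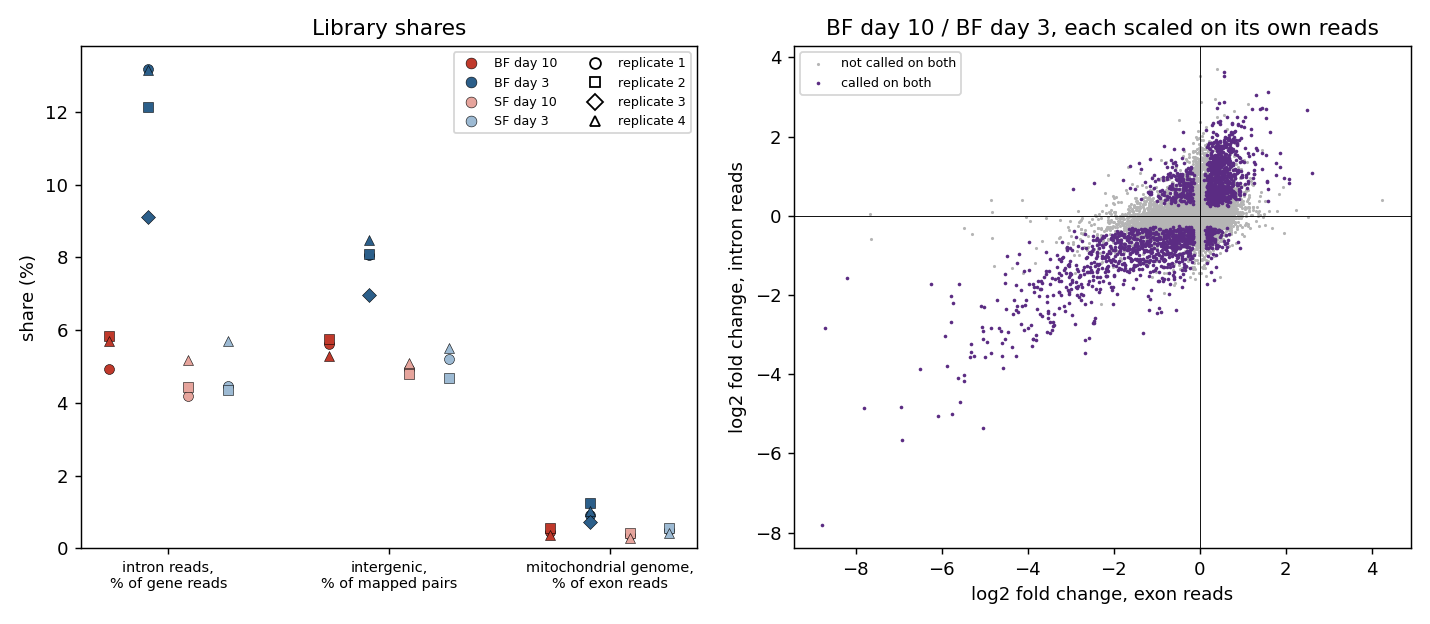
Left, the share of intron reads, intergenic pairs and mitochondrial exon reads in each library (%), for BF day 10, BF day 3, SF day 10 and SF day 3, with 1 marker shape for each replicate number. Right, the log2 fold change of intron reads against that of exon reads, BF day 10 over BF day 3, each scaled on its own reads, with the 1973 genes called on both in purple; all BF day 10 intron shares (mean 5.48%) lay below all BF day 3 shares (mean 11.9%).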

How the data were processed

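Total RNA of pooled ovaries was sequenced as read pairs from stranded libraries. Per the labels and the study's methods, the authors trimmed reads and mapped them to the VectorBase AaegL5.0 genome in CLC Genomics Workbench, after a quality check with FastQC. For the counting, the sources used here do not state the annotation release, the strand setting or how reads that map to several genes were treated. The deposited counts are raw exon, intron and gene read pairs per gene (19381 genes, 1102 with a symbol), and the deposited RPKM values, scaled by the authors by exon length and mapped pairs, were used only to rank genes by level.

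Total exon reads of all 19 libraries were fitted in 1 model of the 6 groups with edgeR 4.0.16 in R 4.3.3 (robust quasi-likelihood, filterByExpr with a minimum count of 10 and a minimum total of 15, TMM scaling, 13 residual degrees of freedom, Benjamini-Hochberg adjustment). Intron reads were filtered and scaled on their own, and library shares were compared by an exact permutation test in scipy 1.17.1. Counting intervals cover counting error only. With simulated counts for BF day 10 against BF day 3, over 13174 genes, 68.4% of changes of size 1 and 90% of changes of size 2 on the log2 scale were recovered, with 4.27% false calls. Only 198 of these genes were changed, with rises and falls in like number. In the data 7074 genes were called and large falls prevailed, so these rates need not hold there.

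Named genes are the 10 largest rises and falls (3 for lncRNAs) among called genes without overlap, with at least 10 reads in each library of the higher group and at least 50% unique reads, the 10 most abundant by RPKM on each day, the 3 largest called rises and falls of each list, all members of short lists, and genes in the study's text. The members and lists were chosen with earlier results of these data known. No gene descriptions could be matched, so lists by description were replaced by lists of symbols added after the files were seen. Genes named outside the rule (APG8, USP, InR, Dronc, COX2, COX3, ATP6, CYTB, CYP9J22, CYP9M9, CYP325N1, U11, U12 and others given by a fold change alone) were chosen after their values were seen. Alternatives covered scaling, filters, read type, tool, block, threshold and each left-out library. 1 gene that the rule names is not reported here.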

Additional observations from a re-analysis of the deposited data

Results flagged for a closer look

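In 12 genes a single BF day 3 library lay far from the other 3, a pattern that chance gives in about 1 in 20 groups. All 12 are among the 154 named genes, and with that many genes several such cases can arise by chance. Replicate 3 was the library in 6 of them. It was high for HSP70Ba (7.17 CPM), HSP70Bb (5.67 CPM), RpLP0 (1949.5 CPM) and PIWI7 (0.323 CPM), and low for GSTS1 (39.0 CPM) and CYP6M5 (4.31 CPM). Replicate 2 was the low one for AAEL023492 (0.947 CPM) and Or30 (0.710 CPM). Replicate 4 stood apart for CTLGA5 (4.48 CPM), mRpL39 (42.5 CPM) and AAEL004130 (2.50 CPM), and replicate 1 for AAEL023200 (2.51 CPM). The change by day 10 differed between BF and SF ovaries in 3664 genes by the interaction term of the edgeR model.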

How the results depend on the processing

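BF day 10 against BF day 3 gave between 5423 and 8479 calls in 14 of the alternatives that kept all 7 libraries: 7150 with RLE, 7062 with upper-quartile and 7273 with library-size scaling, 7201 with DESeq2, 7045 with limma-voom, 8479 on all gene reads and 5423 at an FDR below 0.01. With glmTreat, which tests for changes beyond 1 on the log2 scale, 931 calls were left, 32 higher and 899 lower. Leaving out 1 library gave 6303 to 6919 calls, 2028 to 2217 past a log2 fold change of 1, 2354 to 3154 on intron reads and 3144 to 4039 for the interaction. For SF day 10 against day 3, the 19 calls became 1 to 5 without 1 library. Intron reads scaled on exon reads gave 8165 calls.

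Same-numbered day 10 and day 3 libraries deviated together only weakly (r = 0.072, 0.022 and 0.027 over genes), so they were not taken as pairs. With the replicate number as a replicate block, 6919 genes were called in the 7 libraries and 7174 in all 19, with 3374 on intron reads, 4204 for the interaction and 111 for SF. In the 7 libraries with the block, Tf1 (FDR p-value 0.201), CLIPB46 (0.0569) and CLIPA1 (0.0877) were not called, and the CLIP, serpin and PPO list had 13 rises and 13 falls.

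Of 136 called named genes, 55 kept their call under every alternative and 15 lost it on leaving out 1 library. The count of 55 is limited by glmTreat, 1 of the alternatives. Under that test, called genes with changes below 1 on the log2 scale could not keep their call. On all gene reads AAEL001463 (-0.16) and GPRNNA1 (-0.065) changed sign. The cause was not tested. With 3 and 4 libraries, a gene that was not called may still differ.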
